A study of Mus musculus with 96 samples.

Results

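The mouse line RAW 264.7, whose cells resemble macrophages, was given lipopolysaccharide (LPS) and interferon gamma (IFNG) together or each ligand alone, and the response to both ligands at 4 h was set against the sum of the single responses. The members are the 18 arrays of the 3 groups at 4 h, of 96 arrays in the whole series, and they were chosen by treatment and time. Joint cells received 100 ng of LPS with 100 pM of LPS-binding protein plus IFNG at 5 nM. LPS cells received the same LPS and binding protein, IFNG cells received IFNG at 5 nM, and the labels give no volume for the LPS. Every group had 3 numbered sets, each on 2 arrays of swapped dyes, with treated RNA in 1 channel and RNA of untreated cells of that set and time in the other. The labels name no genetic change in these cells, and they do not say whether sets are separate cultures. What the p-values measure is therefore how far sets differ, and that spread may be technical. Labels also do not say whether 1 untreated RNA served all 3 groups of a set, and the part of a shared untreated RNA in the departures was not tested.

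LPS, a component of the outer membrane of Gram-negative bacteria, is sensed by Toll-like receptor 4, whose adaptors activate NF-kB, MAP kinases and IRF3. The last of these drives interferon beta, which acts back on the cell through the type I interferon receptor. IFNG binds its own receptor and signals through JAK kinases and then IRF1, so both ligands reach many of the same interferon target genes, and macrophages given both are the textbook case of classical activation.

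All values below are log2 ratios of treated over untreated RNA, as set values that average the 2 dye orientations, and 3 values in a row are those of sets 1, 2 and 3. The departure of a gene is its joint response minus the LPS response minus the IFNG response. A departure of 0 means that the 2 fold changes multiply, a positive departure that the joint response lay above that sum, and a negative one that it lay below. Departures carry a standard error (SE) from limma, and a gene is called where its p, adjusted by Benjamini-Hochberg over all 11593 genes and unnamed probes tested, was under 0.05. The ratios have an upper limit of 100-fold, a log2 of 6.64, which bounds the joint response but not the sum. Dye-swapped arrays of a set correlated between -0.784 and -0.0093 before the sign was turned, the weakest in set 2 of IFNG, and counts of calls are given with and without each set.

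Promoters are shown for the 2 genes with the largest departures above the sum, and for the 1 with the largest below it, that had an entry in the RefSeq promoter table (mouse build GRCm38.p6, 250 bases before to 50 after the start of transcription, 5′ to 3′ on the gene's strand). Capitals mark matches to the letters of an interferon-stimulated response element (ISRE, GAAA and GAAA with 2 bases between) or an NF-kB site (kB, GGG and CC with 5 bases between) on either strand. Acox3, which encodes a peroxisomal acyl-CoA oxidase, lies at chr5:35582784-35583083 on the plus strand and held 1 kB match. Sgpp1, which encodes a sphingosine-1-phosphate phosphatase, lies at chr12:75735680-75735979 on the minus strand and also held 1 kB match. Gbp3, which encodes an interferon-inducible guanylate-binding GTPase, lies at chr3:142559794-142560093 on the plus strand (the first of 2 starts listed), and it held 2 overlapping ISRE matches, beginning 45 and 39 bases before the start, and 1 kB match after it.
Acox3: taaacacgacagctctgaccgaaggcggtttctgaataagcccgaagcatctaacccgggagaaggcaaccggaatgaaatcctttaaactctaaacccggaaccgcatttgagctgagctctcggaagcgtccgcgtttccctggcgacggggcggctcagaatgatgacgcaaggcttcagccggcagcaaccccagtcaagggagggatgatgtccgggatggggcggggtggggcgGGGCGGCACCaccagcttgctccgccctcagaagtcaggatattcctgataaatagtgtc
Sgpp1: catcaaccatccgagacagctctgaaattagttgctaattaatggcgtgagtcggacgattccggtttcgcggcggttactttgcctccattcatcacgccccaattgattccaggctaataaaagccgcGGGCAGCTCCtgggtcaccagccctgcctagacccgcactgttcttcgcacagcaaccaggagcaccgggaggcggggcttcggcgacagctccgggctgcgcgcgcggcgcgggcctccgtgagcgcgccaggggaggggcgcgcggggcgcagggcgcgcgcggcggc
Gbp3: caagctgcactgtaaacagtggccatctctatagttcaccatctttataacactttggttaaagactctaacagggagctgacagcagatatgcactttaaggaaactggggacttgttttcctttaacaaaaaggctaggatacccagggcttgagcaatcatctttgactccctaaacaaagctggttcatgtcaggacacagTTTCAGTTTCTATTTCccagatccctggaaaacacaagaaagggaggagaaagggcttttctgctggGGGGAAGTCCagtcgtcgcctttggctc
Of the 193 named genes called below the sum, 146 had a promoter in the table. Among these, 14.4% held an ISRE match and 60.3% a kB match. Of the 84 named genes called above the sum, 66 had a promoter, and 1.52% held an ISRE match and 65.2% a kB match. The same shares were 10.8% and 64.4% over the 334 matched genes that both single ligands raised, and 3.21% and 62.4% over all 7757 matched genes tested. Over all 27025 promoters of the table they were 3.49% and 50.4%. Letters of a GAS motif (TTCNNNGAA, with N any base) were searched too, and the promoters shown held no match. Such a match was held by 14.4% of the genes called below and 6.06% of those called above. The GAS share was 10.8% where both single ligands raised the gene, 7.27% of all genes tested and 8.47% of all promoters. The kB letters thus occur in most promoters of this length, and a match describes letters, not a bound site.

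The joint response departed from the sum in 314 of 11593 genes and probes, 98 of them above the sum (0.845% of those tested) and 216 below it (1.86%). Named genes made up 84 of the 98 and 193 of the 216. Over all genes tested the median departure was -0.0065, with 5% and 95% points at -0.43 and 0.37 and a median SE of 0.20. Departures below the sum were the larger ones: 135 of the 216 reached a size of at least 1 and 32 reached at least 2, while 27 of the 98 above the sum reached at least 1 and 3 reached at least 2. The departures of a gene in the 3 sets shared 1 sign in 95 of the 98 genes above and in 209 of the 216 below, which the call itself favours, and the remaining 3 and 7 called genes lacked a set value. With departures matched by set number, 98 genes lay above (0.85% of 11526) and 274 below (2.38%), and these shared 63 and 189 genes with the calls just given. Without set 1 the counts were 17 above and 100 below, without set 2 they were 41 and 97, and without set 3 they were 73 and 196. All 314 departures kept their sign without each set in turn, and 14 of the 98 above and 62 of the 216 below stayed called every time. With each array scaled to a common spread the split was 39 above and 161 below, so that genes above made up 19.5% of the calls, against 31.2% with the ratios as deposited. That scaling ended the calls of 21 of 77 named genes, namely Pmaip1, Pax6, Procr, Zfp36, Odc1, Nos2, Tlr1, Traf1, Relb, Pim1, Gadd45b, Fosl1, Id1, Rgs2, Rgs1, F3, Fcgr3, Cdc6, Ccne2, Osgin1 and Ywhaz (adjusted p from 0.0535 to 0.547).

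**Figure D1:**
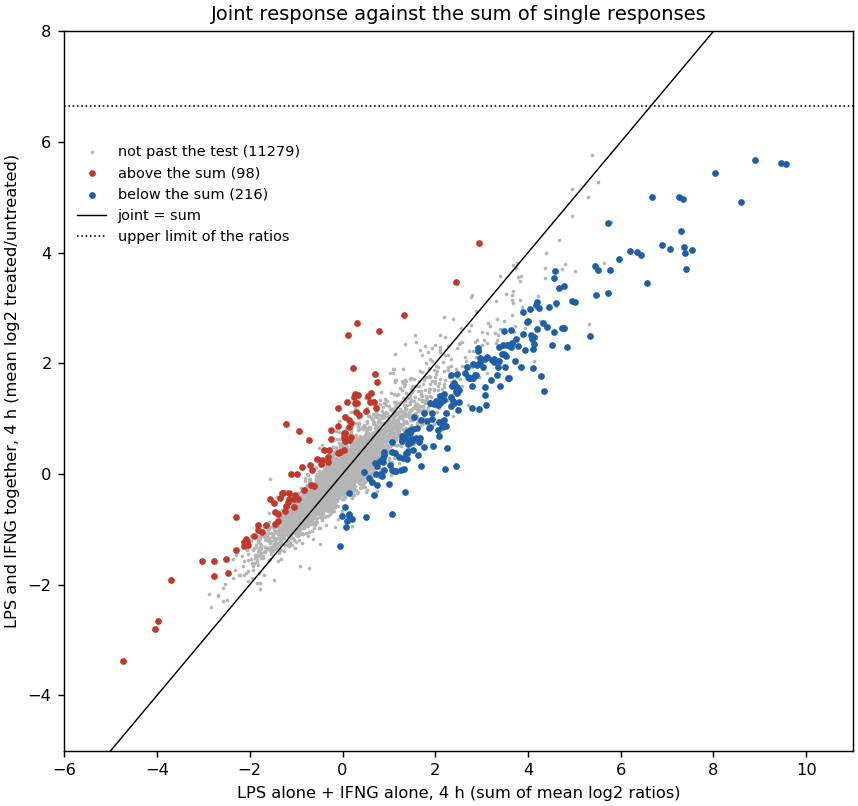
The mean joint log2 ratio at 4 h (vertical axis) is plotted against the sum of the mean LPS and IFNG log2 ratios (horizontal axis) for 11593 genes and probes, with called genes in colour. The 98 called above the sum lie over the diagonal and the 216 called below it lie under it. All 15 genes whose sum exceeded the upper limit of 6.64, which the joint ratio cannot pass, are called below.

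Departures differed with the direction of the single responses. At 4 h, LPS alone raised 1474 genes and probes (12.7%) and lowered 1841 (15.9%), IFNG alone raised 731 (6.31%) and lowered 695 (5.99%), and both together raised 1757 (15.2%) and lowered 2180 (18.8%). Of the 503 genes that each single ligand raised, 170 departed below the sum and 4 above it, and their median departure was -0.53. Joint responses in those 503 genes exceeded the higher of the 2 single responses by a median of 0.12. Of the 543 genes that each single ligand lowered, 41 departed above the sum and none below, with a median departure of 0.28. Genes that only LPS raised, 944 in number, departed above the sum in 6 cases and below in 31. The 1259 that only LPS lowered did so in 10 and 0 cases, the 189 that only IFNG raised in 2 and 4, and the 125 that only IFNG lowered in 2 and 0. Where the ligands opposed each other, 2 genes lay above and 1 below of 27 that LPS raised and IFNG lowered, and 6 above and 3 below of 39 that LPS lowered and IFNG raised. Among the 7964 genes that neither ligand alone changed past the test, 25 lay above the sum and 7 below. The single responses enter the departure with a negative sign, so by construction their own error enters both sides of this grouping, and these shares are a description.

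Grouped by the sum of the single responses, the departures ran the same way. That sum is itself subtracted in the departure, so by construction its error enters both, and these medians are a description. The median departure was 0.67 in the 41 genes with a sum under -2, 0.33 in the 411 with a sum between -2 and -1, and 0.080 in the 5327 between -1 and 0. It was -0.095 in the 5145 genes with a sum between 0 and 1, -0.37 in the 397 between 1 and 2, -0.81 in the 197 between 2 and 4, and -1.59 in the 60 between 4 and the upper limit. All 15 genes with a sum above the limit, from 6.68 to 9.56, were called below. No joint value can pass the limit, so a departure below 0 was fixed in advance for these 15. Their mean joint values ran from 3.71 to 5.68 and stayed under the limit, and 1 of them, Tgtp1, had arrays that reached it. Without these genes and those with a value at the limit, 97 lay above and 198 below.

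Interferon-inducible GTPases, which attack the vacuoles of intracellular pathogens, had the departures furthest below the sum. The sums of Gbp3, Gbp8, Tgtp1, Igtp, Irgm2 and Iigp1 lay above the upper limit of 6.64, which no joint value can pass. For these genes a departure below 0 was thus fixed in advance, and part of its size follows from the limit. Gbp3 had joint values of 5.79, 5.33 and 5.66, LPS values of 5.25, 5.33 and 4.38 and IFNG values of 4.43, 4.36 and 4.95. The joint values lay above all 3 IFNG values, and the lowest of them lay just over the highest LPS value. Its departure was -3.97 ± 0.33 (adjusted p = 2.37e-10), and its mean joint ratio of 48.3-fold compares with 31.7-fold for LPS and 23.9-fold for IFNG. Its 2 probes gave departures of -4.48 and -3.46. Gbp8 departed by -3.68 ± 0.41 (adjusted p = 6.72e-08), while the third tested guanylate-binding gene, Gbp4, had a departure of -1.10 that missed the test (adjusted p = 0.105, and 0.0297 matched by set).

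All 4 immunity-related GTPases tested fell short of the sum, with a median departure of -3.60. Tgtp1 had joint values of 5.70, 5.47 and 5.70, LPS values of 4.36, 4.30 and 2.98 and IFNG values of 5.31, 5.54 and 5.85. The joint and IFNG values overlapped, and all LPS values lay under both. Its departure was -3.82 ± 0.42 (adjusted p = 3.22e-08), but 1 joint array and 2 IFNG arrays sat at the upper limit, so its joint and IFNG means are lower bounds, and its 2 probes gave -2.99 and -4.66. Igtp, a regulator of the other GTPases of the family, departed by -3.49 ± 0.30 (adjusted p = 2.50e-10). Irgm2, of the same regulatory class, departed by -3.71 ± 0.33 with no joint or IFNG value in set 1. Iigp1, an effector GTPase, departed by -3.21 ± 0.40 with no IFNG value in set 1, and by -3.49 and -2.2 within sets 2 and 3. The joint response of Igtp differed from the IFNG response by -0.082 (adjusted p = 0.937), and that of Iigp1 by 0.14 (adjusted p = 0.916). These 4 genes and both called guanylate-binding genes stayed called without each set in turn.

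Irf1, the transcription factor that carries the IFNG signal to many of these targets, had joint values of 3.47, 3.15 and 3.72, LPS values of 2.80, 2.32 and 3.01 and IFNG values of 3.80, 3.77 and 4.02. Every joint value lay between the LPS values and the IFNG values, with no overlap. Its departure was -3.13 ± 0.32 (adjusted p = 7.68e-09), and neither the joint response minus LPS, 0.74, nor the joint response minus IFNG, -0.42, passed the test (adjusted p = 0.118 and 0.42). Of 24 tested genes of JAK-STAT and IRF signalling, 3 lay below the sum and none above, with a median of -0.12, and 5 lay below when matched by set. The other two were Stat3, a transcription factor of the IL-6 family of cytokines, at -1.15 ± 0.19 (adjusted p = 9.40e-05, and 0.0762 without set 2), and Tyk2, a kinase of the type I interferon receptor, at -0.73 ± 0.19 (adjusted p = 0.0206, with 0.093 without set 1, 0.388 without set 2 and 0.0749 without set 3). The receptor chains Ifngr1, Ifngr2 and Ifnar1 had departures of 0.0089, -0.49 and 0.13, none past the test.

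**Figure D2:**
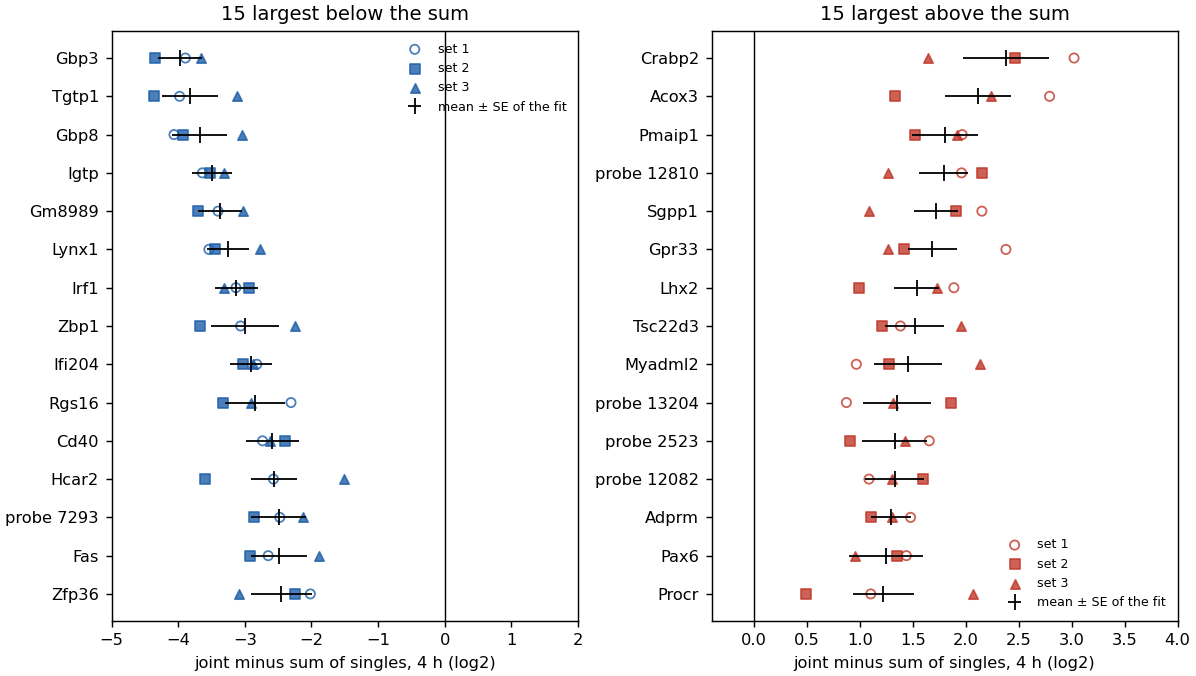
Departures on the log2 scale in sets 1, 2 and 3 (points) and their limma estimate with 1 SE (bars) are shown for the 15 largest called genes and probes above the sum and the 15 largest below it. The genes were chosen among those with 1 sign in all 3 sets, and the estimates run from Crabp2 at 2.38 to Gbp3 at -3.97.

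Type I interferon targets, the antiviral genes that interferon beta induces after LPS, fell short of the sum in 19 of 25 tested genes, with none above and a median departure of -1.30. Their median response was 2.76 in joint cells, 2.85 in LPS cells and 1.17 in IFNG cells. Ifi204, a DNA sensor of the PYHIN family, had joint values of 4.73, 4.38 and 4.04, LPS values of 4.59, 4.42 and 3.81 and IFNG values of 2.97, 2.99 and 3.10. The joint and LPS values overlapped, and every IFNG value lay under both. It departed by -2.91 ± 0.32 (adjusted p = 3.22e-08). Cmpk2, a mitochondrial nucleotide kinase, departed by -2.37 ± 0.40, Isg15, a ubiquitin-like modifier, by -2.36 ± 0.33, and Trim21, an intracellular antibody receptor, by -2.19 ± 0.30 (adjusted p from 4.76e-06 to 0.000118). The nucleic acid sensor Zbp1 departed by -3.0 ± 0.51 (adjusted p = 0.000152) and the translation inhibitor Ifit2 by -2.25 ± 0.57 (adjusted p = 0.0176), and both depend on single sets. For Zbp1 the adjusted p was 0.0781 without set 1 and 0.0534 without set 2, and for Ifit2 it was 0.287 without set 1 and 0.305 without set 2. Isg20, Ifit3 and Mx1 had departures of -0.31, -1.50 and -1.03 that missed the test, though matched by set the adjusted p was 0.000597 for Ifit3 and 0.00684 for Mx1. Of the 19 called genes, 8 stayed called without each set in turn.

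Some antigen presentation genes were called below the sum. Counts in this and the other lists stand beside shares of 0.845% above and 1.86% below over all genes tested. Of the 503 genes that each single ligand raised, 33.8% were called below. Of 3 tested proteasome genes, the immunoproteasome subunits Psmb10 and Psmb8 departed by -1.82 ± 0.24 and -0.94 ± 0.15 (adjusted p = 2.28e-06 and 6.58e-05), and Psmb9 had -0.21, which missed the test. Of 12 tested genes of MHC class I and antigen processing, 4 lay below the sum and none above, with a median of -0.55. LPS alone raised 10 of these 12 and IFNG alone 9. The peptide transporter subunits Tap1 and Tap2 departed by -1.60 ± 0.28 and -0.96 ± 0.25, and the non-classical class I genes H2-T22 and H2-T23 by -1.37 ± 0.14 and -0.84 ± 0.19. The adjusted p was 1.39e-08 for H2-T22, 0.000158 for Tap1 (0.114 without set 2), 0.0217 for Tap2 (0.12 without set 1, 0.0848 without set 2 and 0.232 without set 3) and 0.00514 for H2-T23 (0.115 without set 1 and 0.128 without set 2). None of 6 tested class II genes departed (median -0.24), among them the class II transactivator Ciita at -0.12 and the invariant chain Cd74 at -0.62.

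Cd40, a receptor through which T cells activate macrophages, had joint values of 5.70, 5.01 and 5.62, LPS values of 5.10, 4.45 and 4.26 and IFNG values of 3.33, 2.97 and 3.98. The lowest joint value fell just under the highest LPS value, and all joint values lay above the IFNG values. It departed by -2.58 ± 0.40 (adjusted p = 3.51e-05) with a mean joint ratio of 43.5-fold. Cd274, the checkpoint ligand PD-L1, departed by -2.77 ± 0.29 with no LPS value in set 1. The other 7 of 9 tested co-stimulatory and checkpoint genes were not called (median of the list -0.072). Cd80 and Cd86, the ligands of CD28, had positive departures of 0.74 and 0.65 that missed the test (adjusted p = 0.279 and 0.515).

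Within the 170 genes that both single ligands raised and that fell short of the sum, the joint response lay close to the stronger single response. The median joint response minus the higher single response was -0.088, with 5% and 95% points at -0.86 and 0.52, and it was negative in 100 of them. These 170 were picked for a joint response under the sum, which by itself lowers this difference. Over all 503 genes that each single ligand raised, the median of the same difference was 0.12. The joint response exceeded both single responses past the test in 4 of the 170, the IFNG response alone in 76, the LPS response alone in 11 and neither in 79. Over all genes tested, the joint response exceeded LPS in 302 (2.61%) and lay under it in 179 (1.54%), and it exceeded IFNG in 686 (5.92%) and lay under it in 599 (5.17%). The totals of 481 and 1285 were 154 and 422 without set 1, 329 and 881 without set 2 and 317 and 970 without set 3, and they were 187 and 413 with arrays scaled to a common spread, 230 and 820 in a fit on the 9 set values and 991 and 2228 with a random block of set and time. The 4 genes, named here after their values were seen unless a list holds them, were F3 (tissue factor, the initiator of coagulation), Pnp (purine nucleoside phosphorylase), Samhd1 (a deoxynucleotide hydrolase) and Ifi211 (of the same sensor family as Ifi204). F3 had joint values of 4.76, 4.38 and 5.89, LPS values of 3.28, 2.84 and 4.09 and IFNG values of 3.01, 3.31 and 3.53, so that every joint value exceeded every single one. Its departure was -1.67 ± 0.42 (adjusted p = 0.014), and the adjusted p was 0.169 without set 1 and 0.137 without set 2. Pnp, Samhd1 and Ifi211 departed by -1.25 ± 0.15, -1.03 ± 0.17 and -1.02 ± 0.22. For Samhd1 the adjusted p was 0.0835 without set 1, and for Ifi211 it was 0.119 without set 1 and 0.083 without set 2.

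**Figure D3:**
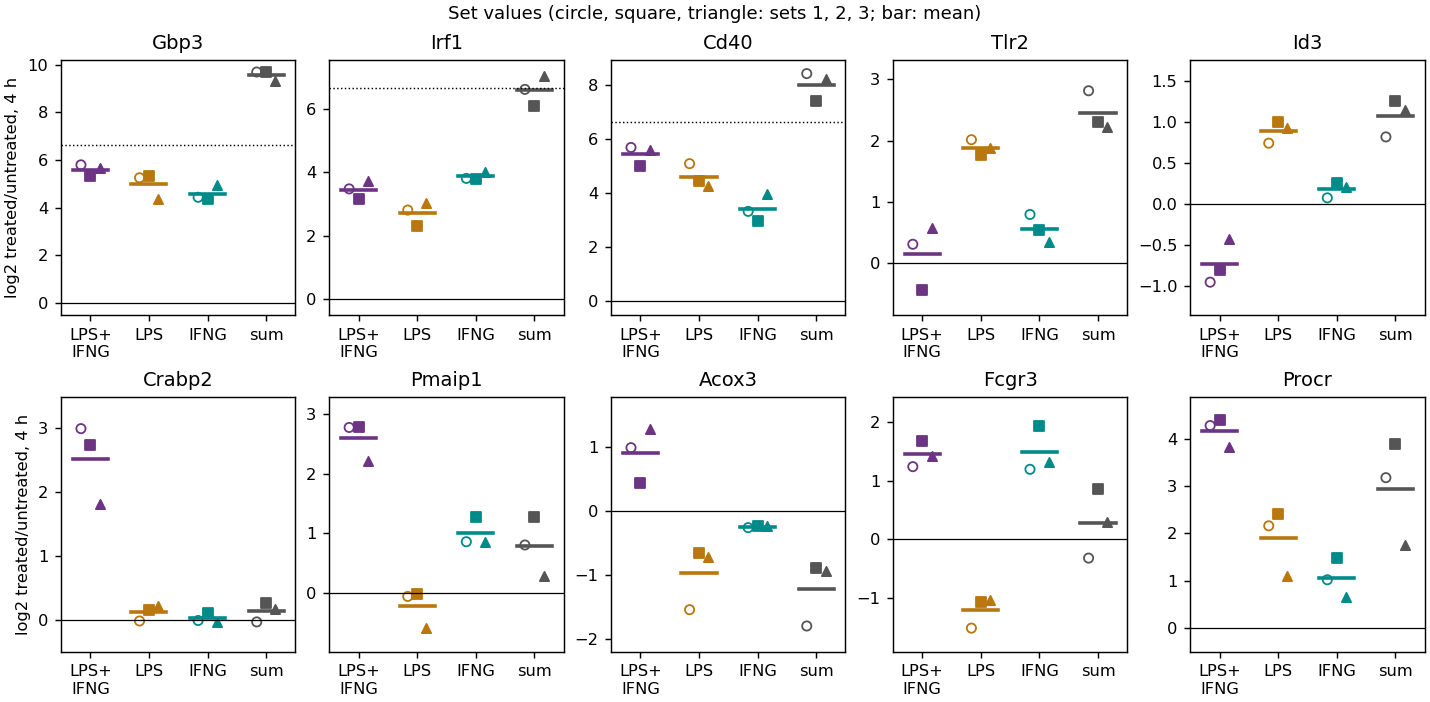
Log2 ratios of treated over untreated RNA at 4 h are shown for joint, LPS and IFNG cells in each of 3 sets (points) with the group mean (line), beside the sum of LPS and IFNG by set, for 5 genes below the sum and 5 above it, and a dotted line marks the upper limit. The joint values of Gbp3, Irf1 and Cd40 sit near the stronger single response, those of Tlr2 and Id3 under the LPS values, and those of Crabp2 and Pmaip1 above every single value.

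In 49 genes below the sum the joint response lay under the LPS response itself, and LPS alone had raised 41 of these. In 17 of the 41 the joint response was no longer called above 0. Tlr2, the receptor for bacterial lipopeptides, had joint values of 0.31, -0.44 and 0.58, LPS values of 2.02, 1.77 and 1.88 and IFNG values of 0.80, 0.54 and 0.35. All LPS values lay above all joint values, which overlapped the IFNG values. The joint response differed from LPS by -1.74 ± 0.21 (SE, adjusted p = 2.00e-07), and the departure was -2.30 ± 0.26 (adjusted p = 6.72e-08). Rgs16, which speeds the switching off of G proteins, had joint values of 1.97, 1.39 and 1.13, LPS values of 3.03, 2.84 and 3.07 and IFNG values of 1.24, 1.88 and 0.97. Its joint values again lay under every LPS value and among the IFNG values, with a departure of -2.85 ± 0.45 (adjusted p = 5.12e-05). Tpst1, a sulfotransferase of protein tyrosines named after its values were seen, averaged 0.091 ± 0.10 in joint cells, 1.68 ± 0.51 in LPS cells and 0.53 ± 0.28 in IFNG cells (SD, n = 3 each) and departed by -2.12 ± 0.29. Mmp9, a gelatinase, averaged 0.31 ± 0.19 in joint cells, 1.25 ± 0.20 in LPS cells and -0.025 ± 0.075 in IFNG cells (SD, n = 3 each) and departed by -0.91 ± 0.16 (adjusted p = 0.000239, and 0.0667 without set 2). Of the 41 genes, 13 stayed called without each set in turn.

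In 9 genes below the sum the joint response was called below 0 while neither single response was. Id3, an inhibitor of helix-loop-helix transcription factors, had joint values of -0.95, -0.81 and -0.43, LPS values of 0.74, 1.0 and 0.93 and IFNG values of 0.077, 0.25 and 0.21. Every joint value was negative and lay under every single value, and the LPS values were all above 0. Its departure was -1.80 ± 0.28 (adjusted p = 4.46e-05). Counted another way, the joint response lay under both single responses past the test in 9 genes below the sum. Named after their values were seen, these include Lmo2, a bridging partner of blood transcription factors, with a departure of -1.69 ± 0.23, Ptpro, a receptor-type tyrosine phosphatase, with -1.28 ± 0.25, and the homeobox gene Hhex with -1.07 ± 0.24. For Ptpro the adjusted p was 0.0756 without set 2, and for Hhex it was 0.607 without set 1 and 0.145 without set 2. Tlr4, the LPS receptor, averaged -1.26 ± 0.065 in joint cells, -0.23 ± 0.32 in LPS cells and -0.26 ± 0.093 in IFNG cells (SD, n = 3 each). Its joint response lay under both single responses (adjusted p = 0.000402 against LPS and 0.000242 against IFNG), but its departure of -0.77 ± 0.24 missed the test (adjusted p = 0.0722, and 0.0266 matched by set).

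Above the sum, 42 of the 98 genes had a joint response higher than both single responses, past the test, and for 25 of the 98 neither single response was called while the joint response was. Crabp2, a carrier of retinoic acid, had joint values of 2.99, 2.72 and 1.81, LPS values of -0.022, 0.14 and 0.21 and IFNG values of -0.015, 0.11 and -0.041. Each single value lay near 0, and each joint value stood far above all of them. Its departure of 2.38 ± 0.41 (adjusted p = 0.000165) matched a mean joint ratio of 5.69-fold, against 1.08-fold for LPS and 1.01-fold for IFNG. Fst, which encodes the activin antagonist follistatin, was named after its values were seen, since it lacks the LPS value of set 1. It had joint values of 2.69, 2.73 and 2.76, LPS values of 0.12 and 0.036 in sets 2 and 3 and IFNG values of 0.33, 0.38 and -0.015, and its departure of 2.42 ± 0.22 (adjusted p = 1.11e-09) was the largest above the sum. Gpr33, an orphan receptor of the chemoattractant family, departed by 1.68 ± 0.23 (adjusted p = 4.55e-06), with joint values of 2.80, 1.60 and 1.32 and single values between -0.20 and 0.39. Adprm, a hydrolase of ADP-ribose, departed by 1.29 ± 0.19 (adjusted p = 9.47e-06).

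Pmaip1, the pro-apoptotic BH3-only protein Noxa, had joint values of 2.77, 2.79 and 2.21, LPS values of -0.055, -0.0079 and -0.58 and IFNG values of 0.86, 1.27 and 0.86. The LPS values lay under 0 and all joint values stood above the IFNG values. Its departure was 1.80 ± 0.31 (adjusted p = 0.000152), and with each array scaled to a common spread it was 1.26, adjusted p = 0.0535. Lhx2, a LIM homeobox factor, had joint values of 3.40, 2.55 and 2.65, LPS values of 0.93, 0.97 and 0.29 and IFNG values of 0.59, 0.58 and 0.64. Here both ligands alone gave rises, and the joint values again exceeded all of them, with a departure of 1.54 ± 0.21 (adjusted p = 5.07e-06). Procr, the endothelial protein C receptor, reached 17.9-fold in joint cells, against 3.72-fold in LPS cells and 2.07-fold in IFNG cells, and departed by 1.10, 0.50 and 2.07 in the 3 sets. That departure of 1.22 ± 0.29 (adjusted p = 0.00912) is uneven over sets, with an adjusted p of 0.321 without set 1 and 0.0503 without set 3 and 0.143 after scaling to a common spread. Upp1, a uridine phosphorylase named after its values were seen, departed by 1.02 ± 0.19 (adjusted p = 0.000476, and 0.0639 without set 1 and 0.0896 without set 3) and also lay above the sum at 2 h. Of the 42 genes with a joint response above both single ones, 10 stayed called without each set in turn.

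Above the sum, 17 genes had an LPS response below 0 and a joint response higher than it. Acox3 had joint values of 1.0, 0.44 and 1.29, LPS values of -1.54, -0.66 and -0.71 and IFNG values of -0.26, -0.23 and -0.23. All joint values were above 0 and all single values below it, and the departure was 2.12 ± 0.31 (adjusted p = 1.43e-05). Sgpp1 had joint values of 1.36, 0.59 and 0.36, LPS values of -0.77, -0.99 and -0.78 and IFNG values of -0.020, -0.33 and 0.052, again with every joint value above every single one. It departed by 1.72 ± 0.21 (adjusted p = 3.92e-07). Fcgr3, a low-affinity receptor for immunoglobulin G, had joint values of 1.24, 1.69 and 1.43, LPS values of -1.52, -1.07 and -1.03 and IFNG values of 1.20, 1.94 and 1.32. Its joint and IFNG values overlapped while every LPS value was negative, and the joint response was called above 0 and the LPS response below it. Its departure was 1.18 ± 0.26 (adjusted p = 0.00405), and the adjusted p was 0.348 without set 1 and 0.0699 without set 3, and with arrays scaled to a common spread the departure was 0.76, adjusted p = 0.202. By contrast Fcgr1, the high-affinity receptor, which LPS and IFNG each raised, departed by -1.85 ± 0.18 (adjusted p = 3.56e-09).

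In 40 genes above the sum both single ligands and the joint treatment lowered the gene, by less than the sum, and Tsc22d3 is among both these and the 17 just given. In the 41 genes above the sum that both ligands lowered, the joint response exceeded the lower single response in 29, with a median difference of 0.098. These 41 were picked for a joint response above the sum, which by itself raises this difference. Over all 543 genes that each single ligand lowered, the median of the same difference was -0.16. Tsc22d3, the glucocorticoid-induced leucine zipper protein, had joint values of -0.83, -1.06 and -0.45, LPS values of -1.52, -1.72 and -1.50 and IFNG values of -0.69, -0.55 and -0.90. Every LPS value lay under the joint values, which overlapped the IFNG values. It departed by 1.52 ± 0.28 (adjusted p = 0.000392). An unnamed probe, 12810, departed by 1.79 ± 0.23 (adjusted p = 1.61e-06). Departures of Myadml2 (1.46 ± 0.32), Pax6 (1.25 ± 0.35), probe 13204 (1.35 ± 0.32) and probe 12082 (1.33 ± 0.28) were of this kind too, and probe 2523 departed by 1.33 ± 0.31 with a joint value above 0, but none of these 5 stayed called without each set. The adjusted p of Myadml2 was 0.0987 without set 1, and that of Pax6, a paired-box transcription factor, was 0.112 without set 1, 0.0853 without set 2 and 0.308 without set 3. For probe 13204 it was 0.0652 without set 1 and 0.328 without set 2, for probe 12082 0.0731 without set 1 and 0.0879 without set 2 and for probe 2523 0.495 without set 1. Only 4 of the 40 genes stayed called without each set in turn.

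Among the remaining 15 largest departures below the sum, Gm8989 and Lynx1, the second a modulator of acetylcholine receptors, departed by -3.38 ± 0.33 and -3.25 ± 0.32 (adjusted p = 6.67e-09 and 1.57e-08). When probes with fewer set values were let into the average, Lynx1 had a departure of -2.28, adjusted p = 0.312. Hcar2, a receptor for niacin and ketone bodies, departed by -2.56 ± 0.34 (adjusted p = 2.31e-06). The death receptor Fas departed by -2.48 ± 0.42 (adjusted p = 0.000127, and 0.0604 without set 2), and probe 7293 by -2.49 ± 0.41 (adjusted p = 9.40e-05, and 0.0639 without set 1). Zfp36, which promotes the decay of cytokine messenger RNAs, departed by -2.45 ± 0.46 (adjusted p = 0.000573, and 0.0758 without set 2).

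Of 17 tested NF-kB family and feedback genes, 5 lay below the sum and none above, with a median of -0.81. LPS alone raised 15 of the 17 and IFNG alone 11, and 33.8% of all genes that each ligand raised were called below. Calls in this list are thus near that share. Besides Zfp36 the called genes were the NF-kB co-activator Bcl3 at -1.92 ± 0.34, the adaptor Traf1 at -1.66 ± 0.30, the inhibitor of apoptosis Birc3 at -1.50 ± 0.28 and the subunit Relb at -1.0 ± 0.23. Bcl3 and Traf1 stayed called without each set, but scaling to a common spread ended the call of Traf1 (adjusted p = 0.171), while the adjusted p of Birc3 was 0.0844 without set 1 and that of Relb 0.114 without set 2 and 0.129 without set 3. Nfkb2, Rel and Rela had -0.81, 0.20 and 0.011, not past the test, with 0.0169 for Nfkb2 matched by set. Matched by set, 10 genes of this list lay below. Of 18 tested genes of Toll-like receptor signalling, 4 lay below and none above, with a median of -0.24. After Tlr2 these were the double-stranded RNA receptor Tlr3 at -1.99 ± 0.29, the Tlr2 partner Tlr1 at -0.86 ± 0.23 and the adaptor Myd88 at -0.75 ± 0.15. Tlr3 stayed called without each set, while the adjusted p was 0.602 without set 1 and 0.433 without set 2 for Tlr1 and 0.094 without set 2 for Myd88.

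Most secreted factors were not called, though 18 of the 22 tested cytokines had a negative departure. Over all genes tested, 1.86% were called below the sum. Of 22 tested cytokines, Il15 and Il18, which activate T cells and natural killer cells, lay below the sum by -2.08 ± 0.29 and -1.78 ± 0.38 (adjusted p = 5.07e-06 and 0.00246), and the list's median was -0.45. For Il18 the adjusted p was 0.191 without set 1. Tnf, with joint values of 2.35, 2.83 and 3.93, LPS values of 2.74, 3.0 and 3.83 and IFNG values of 1.14, 1.23 and 1.90, had a departure of -1.57 ± 0.53 that missed the test (adjusted p = 0.135), and its joint and LPS values overlapped. Within sets the departure was -1.52, -1.40 and -1.81, and matched by set it passed the test (adjusted p = 0.000335), 1 of 5 cytokines that did so below the sum. Il1a and Il1b had -0.74 and -0.29, not past the test. None of 10 tested neutrophil and monocyte chemokines departed (median -0.36), among them Cxcl1 at -0.0024, Cxcl16 at -0.41 and Ccl4 at -0.86, the 1 of them called when matched by set (adjusted p = 0.0238). None of the 2 tested T cell attracting chemokines departed (median 0.027). Cxcl10 and Cxcl11, also of this list, had too few values to be tested, so the list is only partly covered, and Cxcl11 is taken up at the end. Cxcl9, a ligand of CXCR3, had joint values of 5.57 and 5.96 in sets 1 and 3, LPS values of 0.62, 0.57 and 0.28 and IFNG values of 4.56, 4.75 and 5.39, so the joint values lay above every single value. Its departure was 0.38 ± 0.25 (adjusted p = 0.82), with no joint value in set 2. Ccl5 had -0.32 from 1 of its probes, while another of its probes, not tested for want of values in other groups, averaged a departure of -0.55 ± 0.48 (SD, n = 3) with joint values of 3.52, 3.74 and 4.04.

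Effector enzymes were tested in 2 short lists, and over all genes tested 1.86% were called below the sum. Nos2, the inducible nitric oxide synthase, had joint values of 3.47, 3.52 and 4.02, LPS values of 3.42, 3.09 and 2.54 and IFNG values of 1.55, 1.40 and 1.73. The joint values lay above every single value, and the departure of -0.91 ± 0.25 (adjusted p = 0.0304) depends on the sets and the fit. The adjusted p was 0.794 without set 1 and 0.415 without set 2, and 0.0553 with departures matched by set. Of 11 tested genes of nitric oxide and arginine metabolism, 2 lay below the sum, the other being the ornithine decarboxylase Odc1 at -0.97 ± 0.25 (0.0576 without set 1, 0.383 without set 2 and 0.0638 without set 3), with a median of 0.0069, and 1 lay below when matched by set. Ass1, Gch1 and Pts had 0.20, -0.56 and 0.0069, not past the test. Of 4 tested genes of itaconate and prostaglandin synthesis and related mediators, the histidine decarboxylase Hdc lay below by -2.14 ± 0.33 (adjusted p = 3.10e-05, and 0.0519 without set 2), and Ptgs2, Tbxas1 and Pla2g4a had -1.25, 0.033 and 0.23, not past the test (but 0.00108 for Ptgs2 matched by set), with a median over the list of -0.61.

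Among 24 tested genes of cell death and survival, Pmaip1 lay above and 6 below the sum, with a median of -0.43. With Fas these were the survival kinase Pim1 at -2.11 ± 0.36, the inflammatory caspase Casp1 at -1.38 ± 0.23, the stress gene Gadd45b at -1.36 ± 0.31, the necroptosis effector Mlkl at -0.93 ± 0.22 and 1 gene with a smaller departure. Pim1 and Casp1 stayed called without each set, but scaling to a common spread ended the call of Pim1 (adjusted p = 0.0932). For Gadd45b the adjusted p was 0.264 without set 2, and for Mlkl it was 0.266 without set 1 and 0.352 without set 2. Of 28 tested early response transcription factors, 5 lay below and none above (median -0.41): Id3, Cebpb at -1.07 ± 0.21, Fosl1 at -1.06 ± 0.27, Id1 at -0.83 ± 0.20 and Mafk at -0.76 ± 0.17, and Id3 alone stayed called without each set. Egr1, with a departure of -2.61 ± 0.83, missed the test (adjusted p = 0.0945) and passed it matched by set (adjusted p = 0.00147), where 11 genes of this list lay below. Of 10 tested genes of MAPK and G protein feedback, 3 lay below (median -0.59), with Rgs2 at -1.18 ± 0.33 and Rgs1 at -1.12 ± 0.29 beside Rgs16, and the adjusted p was 0.706 without set 1 and 0.354 without set 2 for Rgs2 and 0.467 without set 1, 0.0985 without set 2 and 0.0662 without set 3 for Rgs1. Matched by set, 5 of these 10 genes lay below, and Id1, whose 2 probes gave -1.64 and -0.02, had an adjusted p of 0.0597.

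Among 15 tested tissue factor, protease and matrix genes, F3 and Mmp9 lay below and none above (median -0.23), and 4 lay below when matched by set. The 29 tested macrophage surface and lysosome genes gave 1 call above, Fcgr3, and 1 below, Fcgr1 (median -0.081), and 2 above and 3 below when matched by set. Of 30 tested cell cycle genes, 2 lay above and none below, and 24 were lowered in joint cells, 22 in LPS cells and 15 in IFNG cells. Their median departure was 0.13. The calls were the replication licensing factor Cdc6 at 0.90 ± 0.21 and cyclin E2, Ccne2, at 0.71 ± 0.18, and neither stayed called without each set. The adjusted p of Cdc6 was 0.422 without set 1 and 0.0818 without set 2 and that of Ccne2 was 0.789 without set 1 and 0.112 without set 2, and 0.0664 for Ccne2 matched by set. Of 15 tested Nrf2 and oxidative stress genes, Osgin1, a growth inhibitor, lay above by 1.20 ± 0.33 (0.473 without set 1, 0.0604 without set 2 and 0.368 without set 3), with a median of 0.12. Osgin1 had no LPS value in set 1 and no joint value in set 3, and its departure within set 2 was 0.74. Of 9 tested housekeeping genes, Ywhaz lay above by 0.48 ± 0.14 (0.146 without set 1, 0.357 without set 2 and 0.507 without set 3, and 0.216 matched by set), with probes at -0.05 and 1.0, and the median was -0.017. No gene departed among 11 tested genes of sterol synthesis and uptake (median 0.073), 12 of glycolysis and hypoxia (median -0.022), 13 of unfolded protein and amino acid stress (median -0.11) and 10 cytosolic ribosomal proteins (median 0.0061).

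**Figure D4:**
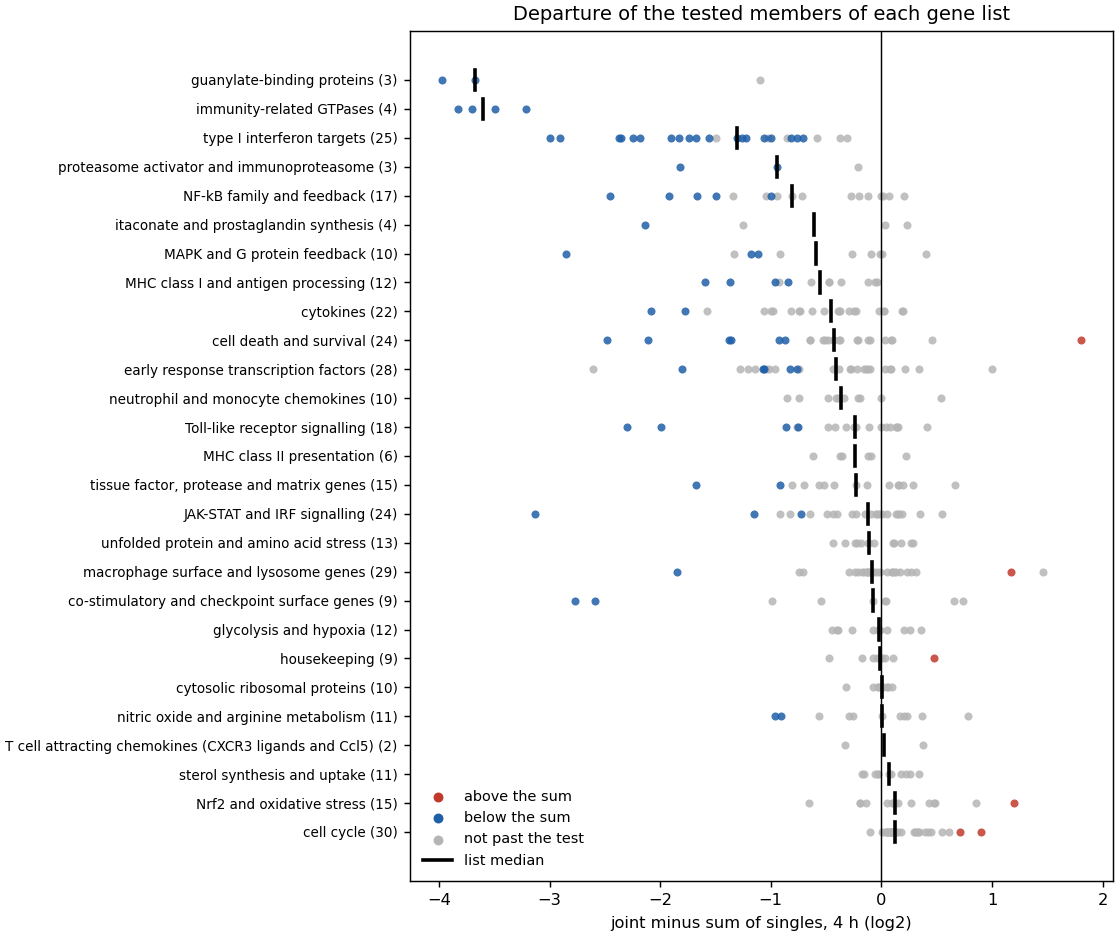
Departures at 4 h on the log2 scale are shown for the tested members of each gene list (points), with the median of the list (bar) and called genes in colour. The interferon-inducible GTPases sit furthest to the left, with list medians of -3.68 and -3.60, and the type I interferon targets follow at -1.30.

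Adding responses on a linear scale gave another picture. There the sum is the LPS fold plus the IFNG fold minus 1, and the departure is the log2 of the joint fold over that sum. Linear departures were tested against 0 with sets matched by number, a test that on the log2 scale gave 98 genes above and 274 below. On the linear scale 44 genes lay above (0.383% of 11485 tested) and 22 below (0.192%). Of these, 20 and 19 were also called on the log2 scale in the same direction by the fit of all groups. The 216 calls below came from that fit, so calls lost here differ in both scale and test. Of the 216 genes below the log2 sum, 206 of the 214 with a value also had a linear departure below 0, but 197 did not pass the test there, and the median was -0.56 on the linear scale and -1.12 on the log2 scale. Gbp3 had a linear departure of -0.22 (adjusted p = 0.811), Irf1 -0.88 (adjusted p = 0.0543) and Isg15 -0.34 (adjusted p = 0.455). Cd40, Nos2 and F3 turned to positive linear departures of 0.32, 0.33 and 0.72, none past the test. Tlr2, Id3, Rgs16 and Tpst1, with joint values under the LPS values, were called below on both scales, with linear departures of -1.91, -1.72, -1.76 and -1.80. Above the sum, all 83 genes with a value kept a positive linear departure, and Crabp2, Fst, Pmaip1, Lhx2, Acox3, Sgpp1, Gpr33, Adprm, Procr and Upp1 were called on both scales.

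At 1 h and 2 h few genes departed. At 1 h, 9 genes lay above the sum (0.0776%) and 0 below (0%) by limma, with 121 above and 71 below at an unadjusted p under 0.05. At 2 h, 18 lay above (0.155%) and 25 below (0.216%), and 21 of these 25 and 6 of the 18 were called in the same direction at 4 h. The departure at 4 h lay under that at 1 h in 103 genes (0.888%) and over it in 14 (0.121%). These 117 genes were 40 without set 1, 44 without set 2 and 99 without set 3. The 15 largest departures below the sum at 4 h had a median of 0.43 at 1 h, -0.92 at 2 h and -3.0 at 4 h, and the 15 largest above it had 0.20, 0.19 and 1.52. Both sets of 15 had a value in every set and were chosen by their 4 h departure, so their larger size at 4 h follows from the choice. All 15 below were negative at 2 h and 5 of them at 1 h. Gbp3 departed by 1.04 at 1 h, -0.82 at 2 h and -3.97 at 4 h, Irf1 by -0.17, -2.15 and -3.13, and Igtp by 0.23, -1.60 and -3.49. Of these earlier values, those of Irf1 and Igtp at 2 h passed the test (adjusted p = 9.92e-05 and 0.00277). Crabp2 departed by 0.49, 1.80 and 2.38 at the 3 times, and the 2 h value passed too (adjusted p = 0.0285).

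Some genes lay above the sum early and not at 4 h. Cxcl9 departed by 2.67 at 1 h (adjusted p = 9.49e-10), 1.43 at 2 h (adjusted p = 0.000381) and 0.38 at 4 h. F3 had 2.22 at 1 h (adjusted p = 0.00798), 1.70 at 2 h (adjusted p = 0.056) and then -1.67 at 4 h. Nos2 had 0.27, 1.35 and -0.91, of which the last 2 passed the test (adjusted p = 0.00173 at 2 h). The kinase gene Sgk1 and the monocyte chemokine Ccl12, named after their values were seen, departed by 2.73 and 2.01 at 1 h and 2.96 and 1.53 at 2 h, all past the test, and by 0.59 and -0.39 at 4 h, which missed it. Gar1, of the ribosomal RNA modification machinery and also named afterwards, lay above the sum at all 3 times, by 1.78, 1.50 and 1.10.

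**Figure D5:**
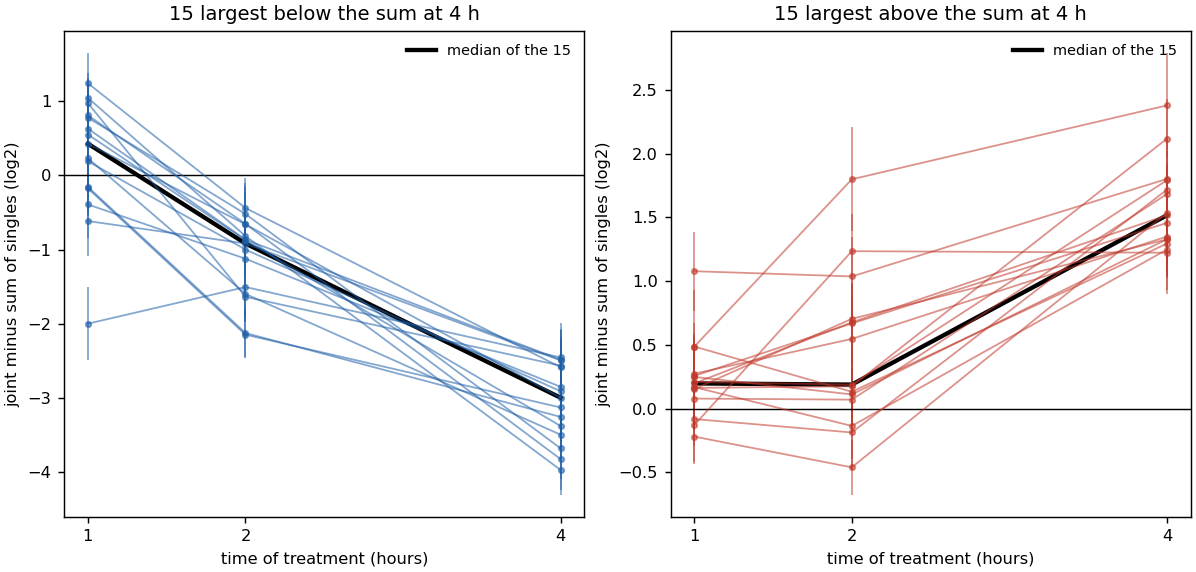
Departures from the sum of LPS and IFNG on the log2 scale are plotted at 1, 2 and 4 h for the 15 largest called genes below the sum and the 15 largest above it (thin lines, with bars of 1 SE), and thick lines join the medians of the 15. The medians below the sum run 0.43, -0.92 and -3.0, and those above it 0.20, 0.19 and 1.52, in genes chosen by their 4 h departure.

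Joint treatment with LPS and 2-methyl-thio-ATP (2MA, a P2 receptor agonist given at 500 uM) was the nearest comparison at 4 h. Departures from the sum of LPS and 2MA were called in 2 genes above (0.0173%) and 5 below (0.0431%). The 2 departures share their LPS arrays, which cancel when 1 is taken from the other. The departure with IFNG minus that with 2MA was above 0 in 57 genes (0.492%) and below 0 in 154 (1.33%). The total of 211 was 80 without set 1, 75 without set 2 and 136 without set 3. Gbp3 departed by -3.97 with IFNG and 0.070 with 2MA, Irf1 by -3.13 and -0.075, Tlr2 by -2.30 and -0.13, and Crabp2 by 2.38 and 0.25. The difference passed the test for each of these 4 genes (adjusted p from 9.63e-09 to 0.00738). All 4 were named for their called departure with IFNG, which enters the difference, so its size partly follows from the choice. Responses of these genes to 2MA alone are not given here. How far the differences follow from a weaker response to 2MA than to IFNG was not tested. The 5 genes below the LPS and 2MA sum were Odc1, Tmem98, Stap1, Tmem189 and Samsn1, and the 2 above it were Tslp and Acp5, all named after their values were seen.

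Each of the 18 arrays measured 14388 to 14990 of its 16281 probes, and precision is limited by the number of arrays. All other values were exactly 0 and were read as not measured. On the 18 arrays 5 values sat at the upper limit, and Gbp2 and Gbp2b, also guanylate-binding genes, were among them but had too few values in other groups to be tested. Of 8 macrophage markers 6 were tested, and Fcgr1 alone departed. None of 4 T cell, 2 B cell and 4 fibroblast markers tested departed, with departures between -0.12 and 0.19. Ratios to untreated RNA show changes and not levels, so the cell type could not be checked by level, and fewer responding cells and less RNA per cell cannot be told apart.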

How the data were processed

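The series holds 96 samples on 2-colour arrays of 16281 probes, in 16 groups of 3 sets with swapped dyes, and groups, dyes, doses and times were taken per the labels. The deposited values are read as log2 ratios of Cy5 to Cy3, since the largest is the log2 of 100. The authors' image analysis, background correction, normalisation and centring are not given in the sources used here. Measured values had medians between -0.044 and 0.015 on the 18 arrays, and intensities were not used here, so signal over background is unknown. Per-sample columns not used here number 0.

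Signs were turned where Cy3 held the treated RNA, exact zeros (1291 to 1893 an array) were read as missing, and the 2 orientations of a set were averaged where both had a value. Probes needed values in 2 or more sets of all groups, which kept 13698 and left out 2583. Names came from the platform annotation, updated through RefSeq genes, with 1 gene for 13738 probes, several for 52 and none here for 2491. After averaging by gene, 9755 named genes and 1838 unnamed probes were tested.

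The model, 1 mean for each of 16 groups over 48 set values, was fitted with limma 3.58.1 in R 4.3.3 (32 residual and 5.89 prior degrees of freedom), with the package data.table (version 1.17.8). All tests were two-sided and adjusted by Benjamini-Hochberg over all genes tested, at a threshold of 0.05, and the fit was tested on simulated data. Plots used matplotlib 3.10.9 in Python 3.11.15. Pairing by set number was checked: deviations of same-numbered sets from their group means correlated between 0.258 and 0.647 in all 9 pairs of the 3 groups, and the labels give the set numbers. Departures matched by set, and linear departures, were tested against 0 by limma on their set values alone. That leaves 2 residual degrees of freedom where all 3 sets had a value. Log2 departures matched by set are given beside named genes whose call they change and lists whose count they move by over 1.5 times.

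The members and the 27 gene lists were chosen with earlier results of these data known. Named genes are the 15 largest called departures each way with 1 sign in all 3 sets, up to 6 called and up to 3 other members of each list, and genes with a value at the upper limit. Alternatives covered zeros, dyes, centring, scaling, filters, probes, the fit, the scale of the sum, the upper limit and leaving out each set.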

Additional observations from a re-analysis of the deposited data

Results flagged for a closer look

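The departure from the sum of LPS and IFNG differed between times by a test of the difference itself, at 4 h minus at 1 h, in 117 genes: it was higher at 4 h in 14 genes and lower in 103. Among the largest departures below the sum, the difference was -5.014 for Gbp3, -4.631 for Tgtp1, -4.455 for Gbp8, -3.927 for Gm8989, -3.826 for Cd40, -3.724 for Igtp, -3.536 for Hcar2 and -3.422 for Zbp1. It was -3.113 for Fas, -3.099 for Lynx1, -3.098 for Ifi204, -2.952 for Irf1 and -2.458 for Rgs16. Above the sum, it was 1.956 for Acox3, 1.801 for Sgpp1, 1.757 for Lhx2, 1.606 for Gpr33 and 1.584 for probe 12810. The genes named here were chosen by their 4 h departure, so the size of these differences partly follows from the choice. The departure also differed between second ligands at 4 h, by a test of the difference: with IFNG it was higher than with 2MA in 57 genes and lower in 154.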

How the results depend on the processing

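Counts here are genes above and below the sum, 98 and 216 in the report. Both counts stayed within 1.5 times with zeros kept as 0 (94 and 214), arrays centred on their median (98 and 216), Cy3 orientation only (92 and 233), a value in all 3 sets (89 and 185), no filter on set values (91 and 216), every probe by itself (102 and 263), robust moderation (98 and 214), without genes at or summing above the upper limit (97 and 198), and with set values from 1 dye orientation kept (91 and 219), the last chosen after seeing the data. The replicate block, departures matched by set, gave 98 and 274, and among 76 named called genes it ended 4 calls, each given in the report. Of 77 named calls, scaling to a common spread ended 21, the 9 set values 19, Cy5 only 13, Cy3 only 10, and leaving out set 1, 2 or 3 ended 29, 31 and 14. The linear sum, tested with sets matched, ended 51 of 69. A random block of set and time (correlation 0.382) gave 191 and 330, a fit on the 9 set values of the 3 groups 28 and 130, Cy5 orientation only 157 and 205, scaling to a common spread 39 and 161, and the linear sum 44 and 22. Genes above made up 17.7%, 43.4% and 66.7% of the calls with the 9 set values, Cy5 only and the linear sum. Without a set, counts ran from 17 to 73 above and from 97 to 196 below.

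The joint response differed from LPS in 481 genes, against 991 with the random block, 230 with the 9 set values, 282 and 298 with Cy3 or Cy5 only, 187 after scaling and 154 to 329 without a set. It differed from IFNG in 1285 genes, against 2228, 820, 846 (Cy5 only), 413 (scaled) and 422 to 970 without a set. The departure differed between 4 h and 1 h in 117 genes, against 195 with the random block, 75 with Cy5 only, 65 scaled and 40 to 99 without a set. It differed between IFNG and 2MA in 211 genes, against 526 with the random block, 108 and 123 with Cy3 or Cy5 only, 118 scaled and 75 to 136 without a set. The signs of Cd40 (0.3228), Nos2 (0.3288) and F3 (0.7248) were positive on the linear scale. No other named call changed sign under an alternative that kept 1 value per gene. With every probe by itself, signs were not compared, and the probes of Ywhaz gave -0.05 and 1.0. Without a set, the fit has fewer samples. The cause of the other shifts was not tested. Signal over background is unknown, and values at the upper limit are lower bounds.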

Other observations

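Some interferon-inducible genes had values at 4 h but too few in other groups to enter the test. When a value in 1 set of each compared group sufficed, as in the alternative without that filter, 4 such list members were called below the sum by limma. Gbp2, a guanylate-binding protein, departed by -5.18 ± 0.72 (SE, adjusted p = 8.32e-06), with mean values of 6.0 in joint cells, 5.10 in LPS cells and 6.08 in IFNG cells, and 1 joint array at the upper limit. Cxcl11, a ligand of CXCR3, departed by -4.04 ± 0.37 (adjusted p = 6.06e-09), with 4.99 in joint cells, 4.26 in LPS cells and 4.77 in IFNG cells. Gbp2b departed by -3.45 ± 0.51 (adjusted p = 5.79e-05), from a probe with no value at the upper limit. For Gbp2, Cxcl11 and Gbp2b the LPS and IFNG means add to more than the upper limit of 6.64. A departure below 0 was thus fixed in advance for them. Usp18, which removes ISG15 from proteins, departed by -1.17 ± 0.26 (adjusted p = 0.00564).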
